A study of Mus musculus with 24 samples.

Results

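The comparison set liver RNA of wild-type C57BL/6N male mice given atorvastatin against that of mice given pregnenolone 16α-carbonitrile (PCN). Both compounds were given by oral gavage for 4 days and followed by a 12 h overnight fast, atorvastatin at 10 mg/kg and PCN at 100 mg/kg, in animals aged 19 to 20 weeks on standard chow. A vehicle group (distilled water) was handled in the same way and is printed as background. Per the labels 9 to 10 mice made up each treatment group, and 4 livers a group were sequenced, each from an animal with its own number, so that 8 of the 24 libraries of the series carry the comparison and 4 vehicle libraries stand beside them. The members are the genes with read counts for both compounds, joined by symbol and coordinates, which came to 2333 of the 19650 genes in the nearly complete vehicle and PCN table. Of these, 2319 passed the filter on low counts and were tested.

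Atorvastatin inhibits cholesterol synthesis early in the mevalonate pathway. When sterols in the endoplasmic reticulum run low, the transcription factor SREBP2 is released from its INSIG anchor and raises the genes for nearly the whole pathway, from HMG-CoA synthase to the last steps. PCN is a steroid that activates mouse PXR (gene Nr1i2), a nuclear receptor that switches on cytochrome P450 oxidases, carboxylesterases, conjugating enzymes and transporters in hepatocytes. Statins are also known to bind PXR, so the compounds may share targets as well as differ in them.

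Which genes could be compared was decided upstream. Atorvastatin counts were listed only for genes that the authors' tables had selected, either on atorvastatin against vehicle or on wild-type against PXR-knockout mice under atorvastatin. The same 4 atorvastatin libraries therefore chose the genes and entered the test, and every share below describes the selected genes, not the transcriptome. Of 618 genes at an adjusted p of at most 0.05 in the authors' deposited vehicle and PCN table, 477 had atorvastatin counts and 141 did not. Cyp3a11, Cyp2b10, Slco1a4, Alas1, Cyp7a1, Hsd3b5, Cyp4a12a, Scd1 and Igfbp1 were looked for by name and were not compared here.

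Markers of liver cell types were read where they were listed. Of 14 hepatocyte markers the vehicle and PCN table listed 13, which summed to 1.15e+06 to 1.22e+06 normalised counts a library with PCN and 1.22e+06 to 1.36e+06 with vehicle. Kupffer cell markers, 15 of 16 listed, summed to 5057 to 7645 with PCN and 6435 to 9444 with vehicle. A normalised count is the read count divided by the library's size factor, which stands for its depth. Factors ran over 1.03 to 1.43 for atorvastatin, 0.659 to 1.33 for PCN and 0.543 to 2.02 for vehicle. Libraries are numbered within a group by their column, and in bulk tissue fewer cells of a type and less RNA per cell cannot be told apart.

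For the genes of sterol synthesis that differed most reliably between the compounds, and for the carboxylesterase gene that differed the other way, the promoters are shown so that their motifs can be read. The windows run from 250 bases before to 50 bases after the transcription start (RefSeq, build GRCm38.p6), with the 3 sterol genes and the 1 PXR-responsive gene of smallest adjusted p. Capitals mark the CCAAT box, read as CCAAT on the printed strand or as its complement ATTGG. Nsdhl lies at chrX:72918271-72918570 (plus strand), Cyp51 at chr5:4104648-4104947 (minus strand), Idi1 at chr13:8885356-8885655 (plus strand) and Ces2a at chr8:104733753-104734052 (plus strand).
Nsdhl: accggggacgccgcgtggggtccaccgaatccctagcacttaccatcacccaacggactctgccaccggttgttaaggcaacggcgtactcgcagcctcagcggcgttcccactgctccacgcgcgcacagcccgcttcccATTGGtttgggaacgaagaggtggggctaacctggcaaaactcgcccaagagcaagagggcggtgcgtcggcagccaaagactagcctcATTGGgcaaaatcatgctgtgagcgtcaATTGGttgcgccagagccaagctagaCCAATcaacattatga
Cyp51: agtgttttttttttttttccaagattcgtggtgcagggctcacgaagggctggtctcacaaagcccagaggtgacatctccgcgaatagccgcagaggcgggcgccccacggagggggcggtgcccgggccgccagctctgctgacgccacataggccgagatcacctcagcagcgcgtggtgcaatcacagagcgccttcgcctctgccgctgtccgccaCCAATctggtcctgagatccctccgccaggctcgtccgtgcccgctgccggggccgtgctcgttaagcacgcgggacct
Idi1: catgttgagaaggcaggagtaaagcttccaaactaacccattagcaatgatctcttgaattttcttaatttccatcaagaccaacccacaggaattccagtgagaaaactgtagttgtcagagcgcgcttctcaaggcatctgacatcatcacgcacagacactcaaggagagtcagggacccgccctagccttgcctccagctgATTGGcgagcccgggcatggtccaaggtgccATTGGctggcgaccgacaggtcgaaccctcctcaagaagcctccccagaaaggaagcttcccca
Ces2a: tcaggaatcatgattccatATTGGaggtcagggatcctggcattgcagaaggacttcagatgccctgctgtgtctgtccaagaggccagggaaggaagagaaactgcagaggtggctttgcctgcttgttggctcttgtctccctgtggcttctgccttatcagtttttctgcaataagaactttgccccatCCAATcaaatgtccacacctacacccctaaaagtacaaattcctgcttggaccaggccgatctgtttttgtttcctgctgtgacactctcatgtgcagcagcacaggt

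The CCAAT box, bound by NF-Y, is known to stand beside sterol regulatory elements. The Nsdhl window held 4 CCAAT boxes, Idi1 held 2, Cyp51 held 1 and Ces2a held 2. Windows were found for 15 of the sterol synthesis genes compared, and 14 of these genes had a CCAAT box in at least 1 window (93.3%), against 44.8% of the 1718 tested genes with a window and 41.1% of all 27025 genes with one. Counted by window, 77.8% of 18 sterol windows held it and 37.4% of all 32851 windows did. The exact sterol regulatory element letters TCACNCCAC, on either strand, were in 1 of the 15 sterol genes, Hmgcs1, and in 1.44% of all genes. An E-box (CACGTG) stood in 3 of the 15 and in 8.09% of all genes, and the D-box letters TTATGNAA in 0 of the 15 and in 3.99% of all genes. The PXR direct repeat and the PXR everted repeat were in 0 windows of the tested genes, against 0.07% and 0.0304% of all windows. These are letter matches in short windows and say nothing of binding.

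Setting the compounds against each other asks which parts of the liver's response they do not share. At an adjusted p of at most 0.05 (edgeR's quasi-likelihood F test with Benjamini-Hochberg adjustment), 69 of the 2319 genes differed, which is 2.98%. Atorvastatin livers were higher in 50 genes (2.16%) and lower in 19 (0.819%), and 399 genes had an unadjusted p under 0.05. The 4 atorvastatin and 4 PCN libraries did not overlap in 63 of the 69, and in 198 of all genes tested (8.54%). Of the 69, 25 differed at least 2-fold. The median log2 difference over all genes tested was 0.03. The vehicle mean lay nearer to the PCN mean than to the atorvastatin mean in 43 of the 50 genes higher with atorvastatin and in 12 of the 19 lower. Of the 2333 joined genes, 1734 were selected on atorvastatin against vehicle by these same libraries. This position of the vehicle mean was therefore in part fixed by the selection, and its share over all genes tested was not computed.

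The count of 69 depends on the set over which p-values are adjusted and on single libraries. Adjusted over all 12958 expressed genes of the vehicle and PCN table, with unlisted genes counted as not passed, 15 genes remained called, 12 higher and 3 lower with atorvastatin. These were Nsdhl, Cyp51, Idi1, Sqle, Hmgcs1, Pmvk, Sc5d, Erg28, Rdh11, Tmco6, Saa2 and Tsc22d3 on the higher side and Mup17, Ces2a and Mup16 on the lower. Leaving out 1 library gave 24 to 86 calls, with 24 without atorvastatin library 3, 41 without atorvastatin library 1, 25 without PCN library 2 and 32 without PCN library 1. Called without any one of the 12 libraries were the same 15 genes and 3 more, Dhcr7, Herpud1 and Scyl3. Erg28, Rdh11, Tmco6 and Scyl3 are named because they belong to these counts, after their values were seen.

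**Figure D1:**
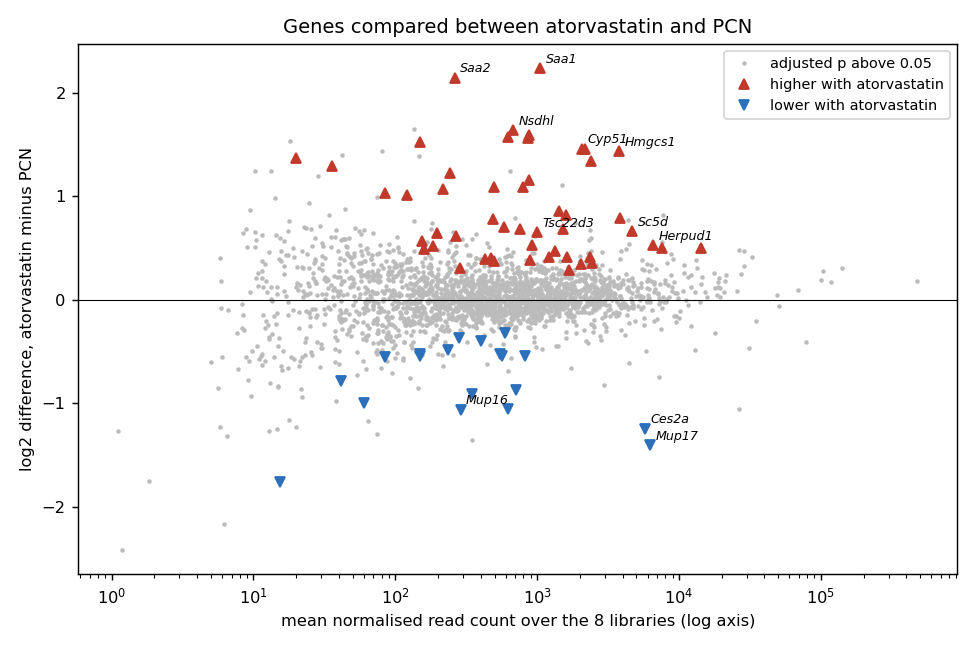
Log2 difference (atorvastatin minus PCN) against the mean normalised read count over the 8 libraries (log axis), 1 symbol for each of 2319 genes. Red upward triangles mark the 50 genes higher and blue downward triangles the 19 genes lower with atorvastatin, and the serum amyloid genes Saa1 and Saa2 stand highest among the called genes.

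Sterol synthesis held more of the called genes than any other list. Of 21 sterol synthesis enzymes 20 had counts for both compounds. Of these, 17 were higher with atorvastatin (2.16% of all genes tested), 0 were lower (0.819%) and 3 (Fdps, Ebp and Lbr) did not pass. Their median log2 difference was 1.19, beside 0.03 for all genes tested, and all 20 differences were positive, from 0.29 to 1.64. The atorvastatin and PCN libraries did not overlap in 17 of the 20, where 8.54% of all genes tested had no overlap. As ratios of group means, the 20 enzymes stood at a median of 2.67 times the vehicle mean with atorvastatin (1.06 to 3.68) and 1.12 times with PCN (0.758 to 1.35). All 17 called enzymes were among the genes selected on atorvastatin against vehicle by these same atorvastatin libraries. With PCN near vehicle, the positive signs and the lack of overlap were in part fixed by that selection.

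Early in the pathway Hmgcs1, which makes HMG-CoA, had 3551, 7306, 7056 and 4111 normalised counts with atorvastatin, 1596, 1482, 2534 and 2509 with PCN and 3015, 2385, 3022 and 2293 with vehicle. Every atorvastatin library lay above every PCN library, and the PCN libraries lay partly below vehicle. The log2 difference was 1.44 (95% interval 0.95 to 1.93, adjusted p = 0.00445).

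The middle steps turn mevalonate into farnesyl units. Idi1, the isopentenyl diphosphate isomerase, had 687, 1134, 1173 and 714 normalised counts with atorvastatin, 248, 262, 270.1 and 456 with PCN and 257, 279, 241 and 269 with vehicle. Its lowest atorvastatin library was above its highest PCN library, and the log2 difference was 1.57 (1.14 to 2.00, adjusted p = 0.00117). Pmvk, phosphomevalonate kinase, averaged 341 ± 56.7 with atorvastatin and 145 ± 43.2 with PCN (SD, n = 4 each), a ratio of 2.35. Mvd, mevalonate diphosphate decarboxylase, averaged 221 ± 105 with atorvastatin and 75.4 ± 40.2 with PCN, and its call (log2 difference 1.52, adjusted p = 0.0289) was lost without atorvastatin library 2 or 3 or PCN library 1, 2 or 3 (highest adjusted p = 0.11). Fdps, farnesyl diphosphate synthase, had 95.5, 242, 414 and 104 with atorvastatin, 67.6, 69.5, 60.7 and 121 with PCN and 63.4, 70.3, 44.2 and 77.7 with vehicle. Its groups overlapped and it did not pass (log2 difference 1.39, 0.54 to 2.23, adjusted p = 0.0804), though it passed with DESeq2 (adjusted p = 0.0193) and without atorvastatin library 1 or 4 (0.0324 and 0.0423).

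From squalene onward the enzymes build and trim the sterol rings. Sqle, squalene epoxidase, had 930.0, 1584, 1887 and 898 normalised counts with atorvastatin, 347, 394, 329 and 670.3 with PCN and 409.8, 382, 304 and 344 with vehicle, and the log2 difference was 1.59 (1.07 to 2.12, adjusted p = 0.00422). Cyp51, the lanosterol demethylase, had 2315, 3605, 3635 and 2539.9 with atorvastatin, 850.0, 973, 1061 and 1496 with PCN and 1141, 1176, 1231 and 1037 with vehicle. The 3 lower PCN libraries of Cyp51 were below the vehicle libraries or among them, and all were below the atorvastatin range. Nsdhl, which takes off the C4 methyl groups of the sterol, had 851, 1247, 1111 and 868 with atorvastatin, 223, 268, 389 and 429 with PCN and 311, 377, 267 and 426 with vehicle. Its gap was the widest of the enzymes, at 3.11-fold (log2 difference 1.64, 1.22 to 2.05, adjusted p = 0.000682). Sc5d, lathosterol oxidase, averaged 5717 ± 457 with atorvastatin, 3607 ± 473 with PCN and 3518 ± 198 with vehicle (SD, n = 4 each), a smaller step of 1.58-fold that passed all the same (adjusted p = 0.0024). Dhcr7, which acts at the end of the pathway, differed by 1.09 on the log2 scale (adjusted p = 0.0114).

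**Figure D2:**
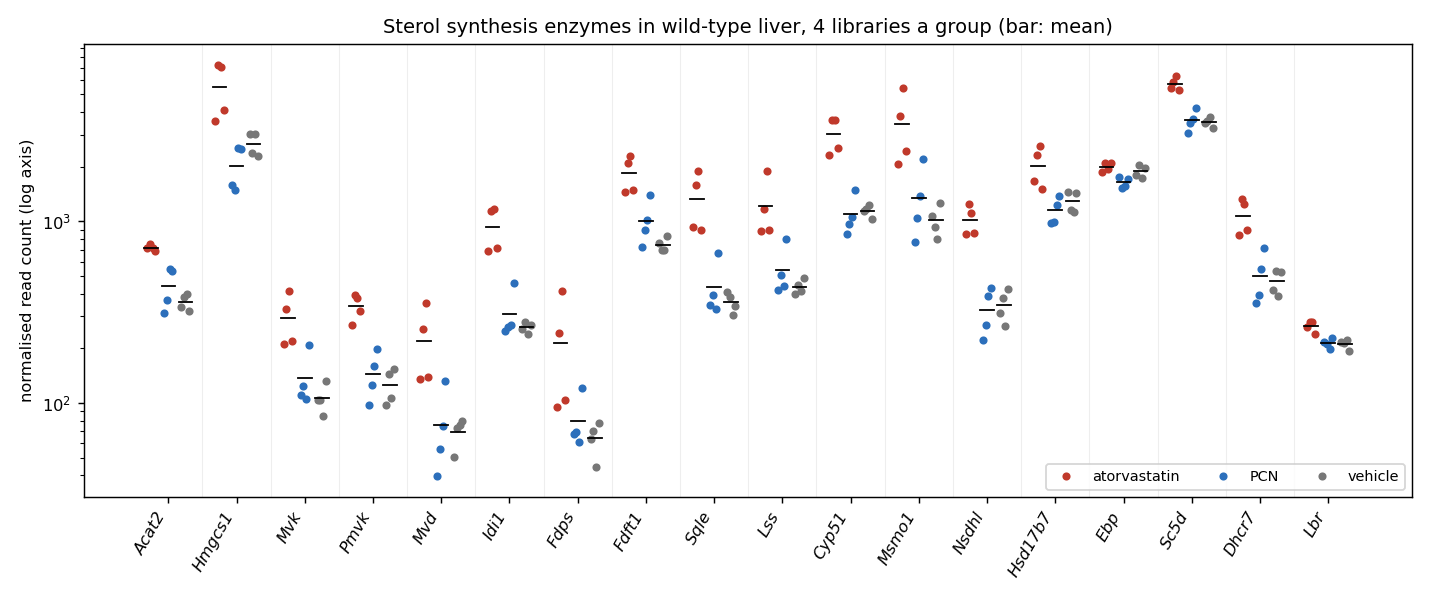
Normalised read count (log axis) of 18 sterol synthesis enzymes in pathway order, 4 libraries a group as points and the group mean as a bar, atorvastatin in red, PCN in blue and vehicle in grey. Atorvastatin points lie above PCN points without overlap in 16 of the 18 genes, and PCN and vehicle points mostly share a range.

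The sterol genes moved library by library. In 17 of the 20 enzymes the 2 highest atorvastatin libraries were numbers 2 and 3, and the lowest was number 1 in 13 and number 4 in 6. The median ratio to the vehicle mean over the 20 enzymes was 1.96, 2.97, 3.13 and 1.96 in atorvastatin libraries 1 to 4, and 0.899, 0.997, 1.04 and 1.55 in PCN libraries 1 to 4. PCN library 4 was the highest of its group in 17 of the 20 enzymes and PCN library 1 the lowest in 13. All 4 atorvastatin medians lay above all 4 PCN medians. The count of called enzymes was 8 without PCN library 2, 9 without PCN library 1, 9 without atorvastatin library 3 and 13 to 17 without any other single library, and it was 7 when adjusted over all 12958 genes.

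Around the pathway, 4 of the 11 compared genes of sterol sensing, uptake and efflux were higher with atorvastatin and 0 lower. Over all genes tested 2.16% were higher and 0.819% lower. The list held 22 genes, and the median log2 difference of the 11 was 0.30. Insig1, the sterol-sensitive anchor of SREBP, averaged 4880.1 ± 1341 with atorvastatin and 2826 ± 874 with PCN (SD, n = 4 each; log2 difference 0.79, adjusted p = 0.0441). Srebf2, the gene for SREBP2 itself, averaged 1543 ± 199 with atorvastatin and 1114 ± 118 with PCN (0.47, adjusted p = 0.0235), and Tmem97, an endoplasmic reticulum sterol-related gene, 1079 ± 114 and 749 ± 145 (0.53, adjusted p = 0.0466). The calls of Srebf2, Insig1 and Tmem97 were each lost without atorvastatin library 3 or PCN library 1 or 2, and those of Insig1 and Tmem97 without several others as well (highest adjusted p = 0.141). The count for the list was 0 without atorvastatin library 3 or PCN library 2, 1 without PCN library 1, 2 without atorvastatin library 1 or 2, PCN library 3 or vehicle library 2 or 3, and 0 when adjusted over all 12958 genes. Insig2, the second anchor, stood at 1427 ± 255 with atorvastatin and 1777 ± 782 with PCN, both under the 4367 ± 1195 of vehicle, and the difference between the compounds (−0.31, −0.85 to 0.22, adjusted p = 0.53) did not pass.

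Fatty acid synthesis, which the related factor SREBP1c governs, gave fewer differences. Of 26 genes on the list 17 were compared (median 0.35). Beside 2.16% higher and 0.819% lower over all genes tested, 3 of the 17 were higher with atorvastatin and 0 lower. These were Fads1, a desaturase, at 8853 ± 673 with atorvastatin and 6261 ± 742 with PCN, Slc25a1, the mitochondrial citrate carrier, at 2707 ± 26.8 and 2032 ± 287, and Mid1ip1, an activator of acetyl-CoA carboxylase, at 621 ± 154 and 361 ± 106 (SD, n = 4 each). All 3 calls were lost without atorvastatin library 1 or 2 or PCN library 1 or 2 (highest adjusted p = 0.142), and 6 genes of the list passed without PCN library 4. Fasn, the fatty acid synthase, had 11209, 11068, 11664 and 5456 with atorvastatin, 3791, 3999.7, 5946 and 8506 with PCN and 3345, 5509, 3169.7 and 5054 with vehicle. Atorvastatin library 4 stood apart from the other 3 and lay within the PCN range, and Fasn did not pass (0.82, 0.24 to 1.41, adjusted p = 0.143). Srebf1 averaged 2922 ± 291 with atorvastatin, 2309 ± 787 with PCN and 1219 ± 188 with vehicle (0.34, −0.05 to 0.72, adjusted p = 0.346). Without PCN library 4, Fasn and Srebf1 passed as well (adjusted p = 0.0348 and 0.0262).

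The acute phase genes Saa1 and Saa2 showed the widest gaps of all called genes. They encode serum amyloid A, which hepatocytes secrete under inflammatory cytokines, and lie side by side on chromosome 7 at 46740497 to 46742980 and 46751790 to 46754313 (GRCm38). Saa1 had 1622, 1958, 1393 and 1979 normalised counts with atorvastatin, 840.1, 298, 228 and 86.6 with PCN and 300.5, 218, 264 and 122 with vehicle. Atorvastatin libraries were all above the others, and PCN library 1 was well above the other PCN libraries. The log2 difference was 2.24 (1.29 to 3.19, adjusted p = 0.0195), 3.14 without PCN library 1, and the call was lost without PCN library 2 (adjusted p = 0.0707). Saa2 had 318, 528, 372 and 496 with atorvastatin, 179.7, 74.9, 92.6 and 36.1 with PCN and 87.4, 66.4, 55.3 and 35.8 with vehicle. It differed by 2.15 (1.41 to 2.89, adjusted p = 0.00445; 2.73 without PCN library 1). The 2 genes are close in sequence, so reads may be divided between them in a way the counting set. Saa1 and Saa2 were among the genes selected on atorvastatin against vehicle by these same atorvastatin libraries. Their sign and lack of overlap were therefore in part fixed by that selection.

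No other acute phase gene passed: of 34 on the list 18 were compared, and the median was 0.40. Of the 18, 2 were higher and 0 lower, where 2.16% and 0.819% of all genes tested were. DESeq2 called 5 of the 18. Orm2, an acid glycoprotein, had 78.1, 65.3, 193 and 131 with atorvastatin, 76.7, 40.9, 41 and 13.6 with PCN and 31.7, 21.3, 40.5 and 28.4 with vehicle (1.44, 0.55 to 2.32, adjusted p = 0.0863; 0.0338 with DESeq2 and 0.0405 without PCN library 1). Lcn2, lipocalin 2, had 30.0, 79, 441 and 271 with atorvastatin, 125, 42.2, 60.7 and 27.1 with PCN and 40.4, 41.6, 31.3 and 47 with vehicle (1.65, 0.33 to 2.98, adjusted p = 0.18). For Lcn2 2 atorvastatin libraries were high and 2 were within the PCN range. Of the 16 Kupffer cell markers 4 were compared (Clec4f, C1qa, Cd5l and Lyz2), summing to 993 to 1919 normalised counts with atorvastatin, 1079 to 2255 with PCN and 1785 to 3052 with vehicle, with 0 called. Of 9 neutrophil markers 0 had atorvastatin counts. The part of either cell type in the Saa1 and Saa2 result was not tested.

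PXR and CAR target genes of phase I metabolism gave a single call among those that could be compared. Cyp3a11, Cyp2b10 and Alas1 of this list had no atorvastatin counts. Their PCN means were 2.22, 0.408 and 1.53 times the vehicle means, ratios that were not tested here. Cyp3a11 averaged 79668 ± 25030 with PCN and 35839 ± 8152 with vehicle, and Alas1 15946 ± 1947 and 10423 ± 4612 (SD). Cyp2b10 averaged 30.0 ± 23.9 with PCN and 73.6 ± 82.0 with vehicle, an SD above the vehicle mean, so its ratio is uncertain. Of 31 on the list 11 were compared, and the median was 0.31. Of the 11, 1 was lower with atorvastatin (Ces2a) and 0 were higher, where 0.819% and 2.16% of all genes tested were. The count was 2 with DESeq2, with the 8 libraries of the compounds alone, among genes of the knockout table, without PCN library 3 and without vehicle library 4. Of the 11 differences 9 were positive, and the libraries did not overlap in 5, where 8.54% of all genes had no overlap. These 5 were Ces2a and, higher with atorvastatin but not past the threshold, Cyp2c37, Cyp2c38, Cyp2c50 and Cyp2c54, with log2 differences of 0.49, 0.75, 0.35 and 0.39 (adjusted p = 0.0875, 0.1, 0.065 and 0.0964). Ces2a, a carboxylesterase of the endoplasmic reticulum, lies on chromosome 8 at 104734003 to 104741634. It had 3526, 3158, 3836 and 3174 normalised counts with atorvastatin, 6002, 5952, 7597 and 12899 with PCN and 2837, 3327, 2788 and 3496 with vehicle. The atorvastatin libraries lay in the range of vehicle or just above it, and every PCN library was above both, number 4 by far. The log2 difference was −1.25 (−1.66 to −0.83, adjusted p = 0.00422), a PCN mean 2.37 times the atorvastatin mean. The call held without each single library, with log2 differences of −1.37 to −0.93. Its atorvastatin counts came from the table of wild-type against knockout mice, since the gene was not among those selected on atorvastatin against vehicle. The same held for most genes of the list: only 3 of the 11 were selected on atorvastatin against vehicle. The others, with Cyp2c29 and Cyp2c55 among them, were listed because wild-type and knockout mice differed under atorvastatin. The signs and overlaps of the 11 thus describe genes chosen through these same atorvastatin libraries.

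The other compared PXR and CAR genes did not pass. Cyp2c55, a P450 that PXR agonists induce in mice, had 57.2, 34.3, 46.8 and 17.4 with atorvastatin, 35.4, 42.2, 126 and 151 with PCN and 25.1, 25.3, 22.1 and 47.8 with vehicle. PCN libraries 3 and 4 were high and PCN libraries 1 and 2 were within the atorvastatin range (−1.17, −2.12 to −0.22, adjusted p = 0.185). Por, the electron donor of microsomal P450 enzymes, averaged 12172 ± 1949 with atorvastatin, 9649 ± 1838 with PCN and 5741 ± 2524 with vehicle (0.33, −0.15 to 0.82, adjusted p = 0.453). Cyp2a5, a coumarin hydroxylase, averaged 11734 ± 1460.3 with atorvastatin, 9802 ± 3799 with PCN and 5128 ± 2392 with vehicle (SD, n = 4 each; 0.26, −0.38 to 0.91, adjusted p = 0.676). For Por and Cyp2a5 the interval reaches past 1.5-fold on the atorvastatin side, so a difference of that size was not bounded. Cyp2c29 averaged 14908 ± 2397 with atorvastatin and 12029 ± 1088 with PCN (0.31, 0.05 to 0.56, adjusted p = 0.19). The Cyp2c genes are a family of near copies on chromosome 19, and counts of single members are uncertain.

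Among 31 conjugation and transport genes 11 were compared and 0 passed (median 0.17), and in all 11 the 95% interval lay within 2-fold, where 2.98% of all genes tested passed and 88.6% lay within 2-fold. Both counts are near those shares. Abcb1a, the drug efflux pump P-glycoprotein, had 65.5, 87.6, 75.6 and 94.8 with atorvastatin, 39.6, 83.1, 65.3 and 82.8 with PCN and 39.3, 42.6, 29.5 and 27.6 with vehicle (0.26, −0.23 to 0.75, adjusted p = 0.571). Nr1i2, the gene for PXR, had 1394, 1497, 1665 and 1443 with atorvastatin, 1185, 1252, 1363 and 1641 with PCN and 1250.1, 1322, 1069 and 1380.1 with vehicle (0.14, −0.08 to 0.36, adjusted p = 0.502). Its interval lay within 1.5-fold. Of 22 nuclear receptor and partner genes 10 were compared and 0 passed, again near the 2.98% of all genes tested.

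**Figure D3:**
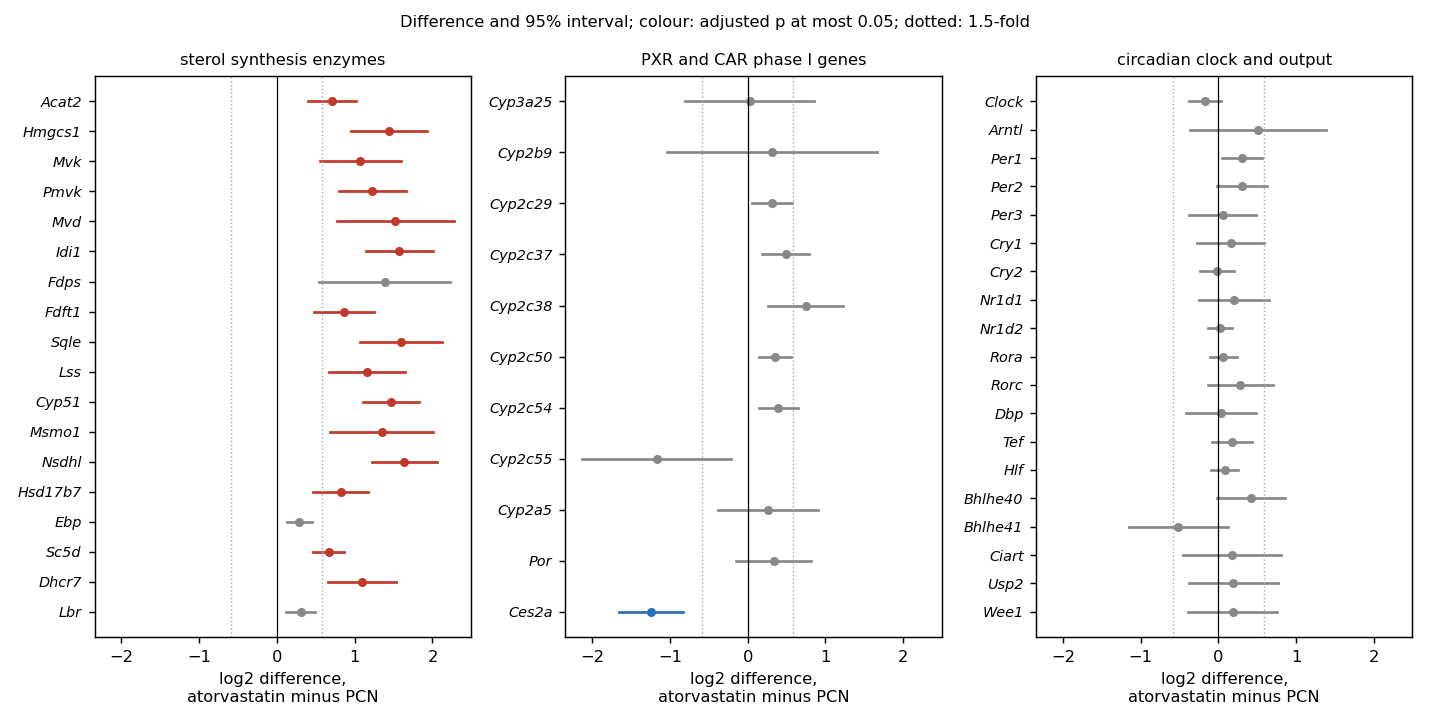
Log2 difference (atorvastatin minus PCN) as a point with its 95% interval as a line, for 18 of the sterol synthesis enzymes, 11 PXR and CAR phase I genes and 19 clock genes, with dotted lines at 1.5-fold. Red marks genes that passed as higher and blue those that passed as lower with atorvastatin, which are 15 sterol enzymes and Ces2a, and no clock gene is coloured.

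Of the called genes lower with atorvastatin, 5 were major urinary protein genes on the list of male-biased genes. These genes encode small secreted carriers of pheromones, are expressed most in adult males under pulsed growth hormone, and lie in a cluster on chromosome 4. Of 35 male-biased liver genes 18 were compared. With atorvastatin 5 were lower (Mup1, Mup12, Mup16, Mup17 and Mup19) and 0 higher, where 0.819% and 2.16% of all genes tested were. The median was −0.75, beside 0.03 for all genes tested. All 18 differences were negative, and the share of negative differences over all genes tested was not computed. Libraries did not overlap in 8 of the 18, where 8.54% of all genes tested had no overlap. The 5 called genes were selected on atorvastatin against vehicle by these same libraries, so their sign and lack of overlap were in part fixed. Mup17 had 3556, 4542, 2550.3 and 3015 normalised counts with atorvastatin, 9313, 8513, 6859.9 and 11533 with PCN and 8599.8, 5646, 5984 and 9936 with vehicle. All atorvastatin libraries were below the PCN and vehicle libraries, which shared a range. The log2 difference of Mup17 was −1.41 (−1.84 to −0.97, adjusted p = 0.00325), and that of Mup16, at 187 ± 30.7 with atorvastatin, 389 ± 67.4 with PCN and 469 ± 126 with vehicle (SD, n = 4 each), was −1.06 (−1.46 to −0.67, adjusted p = 0.00677).

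Mup1 averaged 405 ± 138 with atorvastatin and 842 ± 189 with PCN, Mup12 498 ± 124 with atorvastatin and 914 ± 142 with PCN, and Mup19 242 ± 32.2 with atorvastatin and 451 ± 91.1 with PCN. Atorvastatin and PCN libraries did not overlap in these 3 genes either (adjusted p = 0.0224 each), where 8.54% of all genes tested had no overlap. The calls of Mup1 and Mup12 were lost without atorvastatin library 1, 3 or 4 or PCN library 1 or 2, and that of Mup19 without atorvastatin library 1, 2 or 3 or PCN library 1 or 2 (highest adjusted p = 0.0776). The count for the list was 2 without atorvastatin library 1 or 3 or PCN library 1 or 2, 3 without atorvastatin library 4 and 8 without vehicle library 4, and it was 2 when adjusted over all 12958 genes and 9 with DESeq2. These genes are near copies of one another, so that the values of single members are uncertain and the 5 calls are not 5 separate observations. Mup-ps13, in the same cluster but not on the list, was also called lower (−0.48, adjusted p = 0.0235). It averaged 198 ± 17.1 with atorvastatin, 276 ± 33.1 with PCN and 153 ± 13.9 with vehicle, so both compounds stood above vehicle. Its call was lost in 6 of the 12 fits that left out 1 library. Elovl3, a male-biased elongase outside the cluster, averaged 826 ± 277 with atorvastatin, 1134 ± 342 with PCN and 3403 ± 962 with vehicle and did not pass (−0.46, −0.98 to 0.06, adjusted p = 0.345). Of 19 female-biased genes 6 were compared and 0 passed, near the 2.98% of all genes tested.

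**Figure D4:**
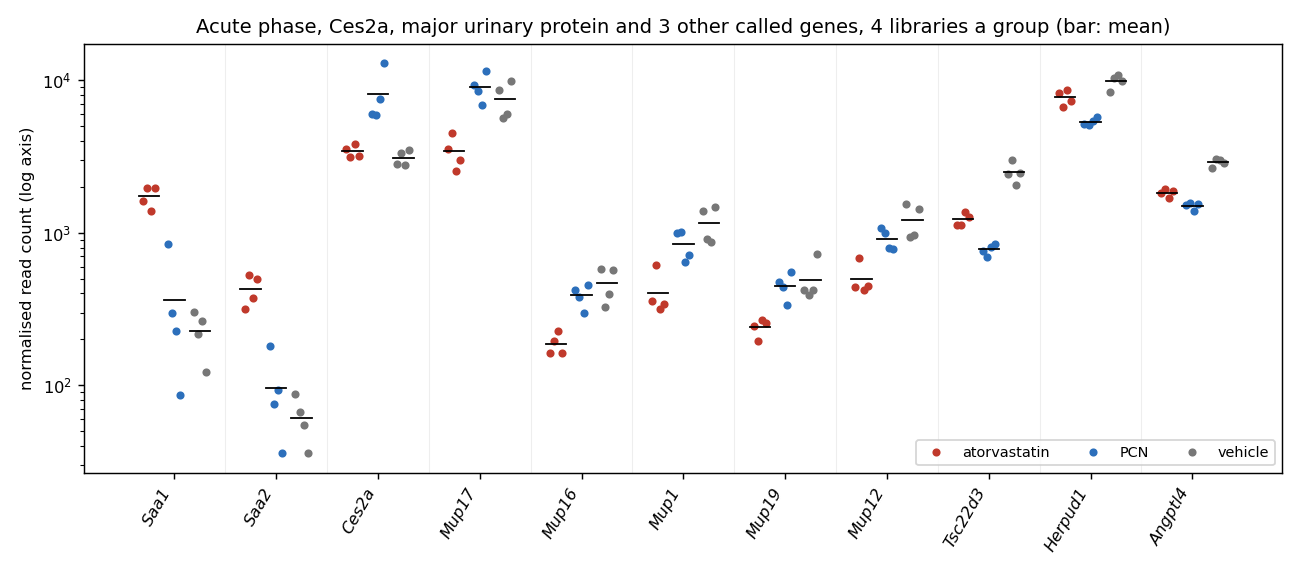
Normalised read count (log axis) of 11 called genes outside sterol synthesis, 4 libraries a group as points and the mean as a bar, atorvastatin in red, PCN in blue and vehicle in grey. Saa1 and Saa2 are high with atorvastatin, Ces2a is high with PCN, the 5 Mup genes are low with atorvastatin, and the means of Tsc22d3, Herpud1 and Angptl4 lie under vehicle with both compounds and lowest with PCN.

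In 47 of the 69 called genes both group means lay on the same side of the vehicle mean, above it in 31 and below it in 16. Both means were set against the same vehicle libraries, which alone favours the same side. The share over all genes tested was not computed, so this count does not show a shared response. Tsc22d3, a glucocorticoid-induced leucine zipper protein, had 1125, 1132, 1375 and 1267 with atorvastatin, 754, 695, 810.4 and 850.2 with PCN and 2417, 2999.8, 2058 and 2479 with vehicle. The 3 groups did not overlap, with PCN lowest (log2 difference 0.65, 0.42 to 0.89, adjusted p = 0.00511). Herpud1, a component of endoplasmic reticulum protein disposal, averaged 7717 ± 896 with atorvastatin, 5345 ± 282 with PCN and 9861 ± 1045 with vehicle (SD, n = 4 each; 0.53, 0.32 to 0.74, adjusted p = 0.0105). It was the only call among 13 compared endoplasmic reticulum folding genes, where 2.98% of all genes tested passed. All 13 intervals lay within 2-fold, against 88.6% of all genes tested. Angptl4, an inhibitor of lipoprotein lipase, averaged 1833 ± 108 with atorvastatin, 1504 ± 77.6 with PCN and 2898 ± 164 with vehicle (0.29, 0.13 to 0.44, adjusted p = 0.0441), and its call was lost in 11 of the 12 fits that left out 1 library (highest adjusted p = 0.0914). Foxo3, a fasting-responsive transcription factor, differed in another way, with vehicle near PCN: it averaged 2295 ± 103 with atorvastatin, 1807 ± 109.6 with PCN and 1888 ± 95.7 with vehicle (0.35, adjusted p = 0.0168; 0.0501 without atorvastatin library 3 and 0.0513 without PCN library 1).

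The remaining named genes on the lower side differed by less. Nt5m (a mitochondrial nucleotidase), Hopx (a small homeodomain protein), Zfp799 (a zinc finger protein) and Sh3pxd2a (a podosome scaffold protein) had log2 differences of −0.56, −0.55, −0.55 and −0.54. Sh3pxd2a averaged 669.9 ± 92.2 with atorvastatin, 976 ± 66.7 with PCN and 1338 ± 162 with vehicle (SD, n = 4 each; adjusted p = 0.0155). Hopx averaged 459 ± 58 with atorvastatin, 671 ± 65 with PCN and 563 ± 88.8 with vehicle (adjusted p = 0.0224), so that vehicle lay between the compounds. All 4 calls were lost without atorvastatin library 3, and each also without at least 1 PCN library (highest adjusted p = 0.0814).

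For most genes the interval says how alike the compounds were. The 95% interval of the difference lay wholly within 1.5-fold in 1569 of the 2319 genes (67.7%) and within 2-fold in 2055. The share within 2-fold was 88.6%. In 264 genes the interval reached past 2-fold, and in 164 of these it also held 0, so that neither no difference nor a 2-fold difference lay outside it. Among genes averaging 50 normalised counts or more over both compounds, 40 stood at least 2-fold above the vehicle mean with both compounds and 20 at least 2-fold below with both, while 0 stood 2-fold on opposite sides. Both counts use the same vehicle libraries. With atorvastatin 98 genes stood at least 2-fold above vehicle and 43 at least 2-fold below, and with PCN 55 and 33. The 40 and 20 genes were picked because these same libraries put both means on the same side of vehicle. The lack of direct differences among them was therefore in part fixed by that choice. Of the 40 genes 0 differed in the direct comparison, and the interval lay within 1.5-fold in 11 and within 2-fold in 29. Of the 20 genes 1 differed, Tsc22d3, and the interval lay within 1.5-fold in 6 and within 2-fold in 16.

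Examples with narrow intervals come from several functions. Fzd4, a Wnt receptor, averaged 1313 ± 109 with atorvastatin, 1417 ± 189 with PCN and 622 ± 52.1 with vehicle (−0.11, −0.32 to 0.10, adjusted p = 0.581). Nmrk1, a nicotinamide riboside kinase of NAD synthesis, averaged 780.4 ± 83.4 with atorvastatin, 938 ± 138 with PCN and 277 ± 22.5 with vehicle (−0.27, −0.49 to −0.04, adjusted p = 0.206). On the lower side Clpx, the ATPase subunit of a mitochondrial protease, averaged 911 ± 189 with atorvastatin, 993 ± 112 with PCN and 2379.7 ± 386 with vehicle (−0.13, −0.43 to 0.18, adjusted p = 0.661). Cldn1, a tight junction claudin, averaged 375 ± 57.6 with atorvastatin, 389 ± 69.5 with PCN and 831 ± 176 with vehicle (−0.05, −0.39 to 0.28, adjusted p = 0.878). In Fzd4, Clpx and Cldn1 the whole interval lay within 1.5-fold, as it did in Nmrk1.

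**Figure D5:**
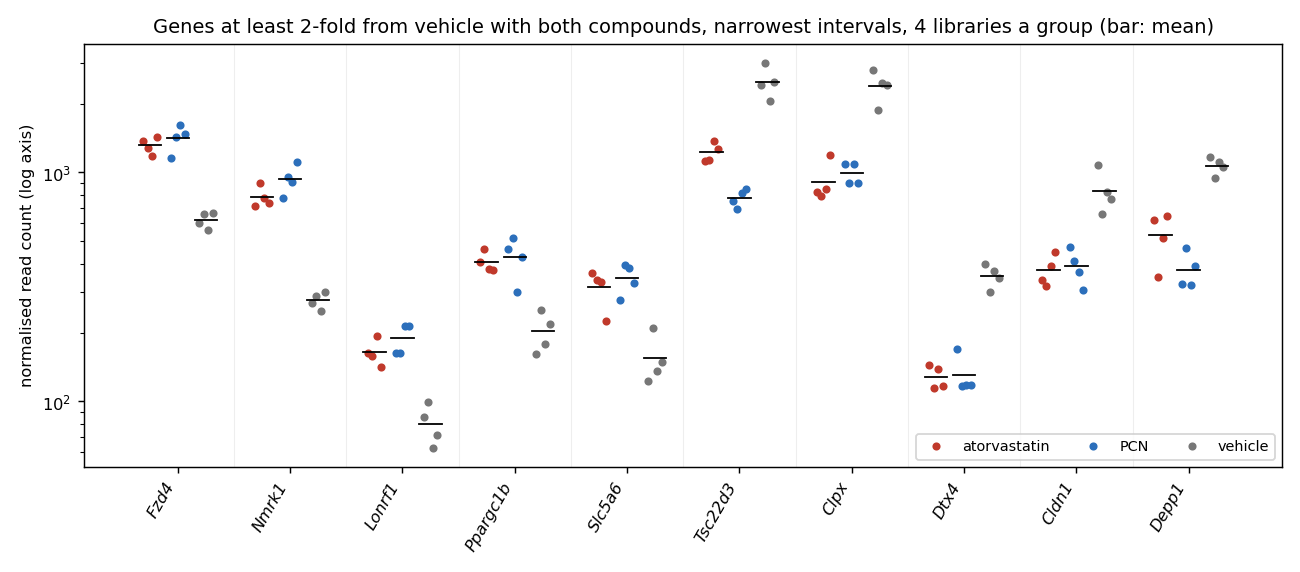
Normalised read count (log axis) of the 10 genes with the narrowest intervals among those at least 2-fold from vehicle with both compounds, 5 above and 5 below vehicle, 4 libraries a group as points and the mean as a bar. Atorvastatin and PCN points overlap in 9 of the 10 genes and are apart in Tsc22d3, and vehicle points lie away from both.

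Of 22 circadian clock and output genes 20 were compared and 0 passed in either direction, a count near the 2.98% of all genes tested (median 0.17). The interval lay within 1.5-fold in 9 of the 20, against 67.7% of all genes tested, and within 2-fold in 17, against 88.6%. Per2, a clock repressor, had 1260.5, 1027, 1101 and 1248 with atorvastatin, 750.2, 1042, 844 and 1115 with PCN and 366, 629, 457 and 451 with vehicle (0.31, −0.01 to 0.63, adjusted p = 0.309). Dbp, an output factor that binds D-boxes, averaged 2190.0 ± 533 with atorvastatin, 2144 ± 224 with PCN and 903 ± 304 with vehicle (0.03, −0.41 to 0.48, adjusted p = 0.939). Arntl, the clock activator BMAL1, had 44.6, 40.4, 24.3 and 109 with atorvastatin, 51.1, 20.4, 33.4 and 42.2 with PCN and 209.8, 109, 97.7 and 127 with vehicle, an interval (−0.37 to 1.39) too wide to bound the difference. Atorvastatin library 4 of Arntl reached the vehicle range and the other atorvastatin libraries did not. Without it the difference was −0.049, in place of 0.51. Npas2, a partner of BMAL1, was near the limit of detection with both compounds, at 0 to 0.859 with atorvastatin and 0 to 4.95 with PCN, against 14.7 to 24 with vehicle.

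Of 36 fatty acid oxidation genes, many of them targets of the fasting receptor PPARα, 17 were compared and 0 were called, again near the 2.98% of all genes. Their median was −0.12 and 14 of the 17 differences were negative. Ehhadh, the peroxisomal bifunctional enzyme, had 3569, 3727, 2881 and 3974 with atorvastatin, 5116, 5513, 7149.7 and 3816 with PCN and 12212, 6198, 9974 and 11688 with vehicle (−0.61, −1.04 to −0.18, adjusted p = 0.14). Cyp4a10, a fatty acid omega-hydroxylase, had 7229.8, 13064, 11339.6 and 11826 with atorvastatin and 15198, 14063, 16882 and 14761 with PCN, groups without overlap (−0.49, −0.88 to −0.09, adjusted p = 0.186). Plin2, the coat protein of lipid droplets, averaged 5274 ± 1019 with atorvastatin, 5274 ± 1068 with PCN and 9288 ± 924 with vehicle, with an interval of −0.32 to 0.32. Of 24 bile acid genes 11 were compared and 0 passed, and of 7 compared genes of NAD and tryptophan metabolism 0 passed. Both counts are near the 2.98% of all genes tested.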

How the data were processed

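Liver total RNA was sequenced with a stranded total RNA protocol, per the labels. The submitters' processing notes name HTSeq, DESeq2 and build GRCm38; no source used here gives versions, the aligner or the annotation. Whole-number counts of reads, not normalised, were deposited for each gene with named columns. The deposited mean signal (baseMean) is the authors' mean of counts divided by size factors, and the authors' adjusted p-value was used only to count genes called with PCN. Columns are known by group from the table and column names, not by animal. In the tables used, 0 per-sample columns lacked a group, and the knockout columns did not enter the fit.

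Size factors were recovered from baseMean by least squares (largest residual 0.00543) and the tables were set on 1 scale through shared vehicle and atorvastatin libraries (spread of the ratios 0.242% and 0.259%). Counts in listed genes were 14723215, 8751635, 8159507 and 16331776 for PCN and 11219276, 24636139, 6636945 and 16961781 for vehicle; for atorvastatin only the size factors are known. No library was a copy of another. The 12 wild-type libraries entered edgeR 4.0.16 (quasi-likelihood F test; R 4.3.3), with the dispersion trend and prior (5.84 degrees of freedom) learned on 12958 genes of the vehicle and PCN table. Benjamini-Hochberg adjustment ran over 2319 genes at 0.05. Values are normalised counts, errors are SD over 4 libraries, and log2 differences are atorvastatin minus PCN with 95% intervals. The scripts were tested on simulated data. Alternatives were TMM scaling, other filters, DESeq2 1.42.0, limma-voom (limma 3.58.1), other gene sets and samples, and leaving out each library.

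The members, lists and named genes were chosen with earlier results of these data known. Named were Nr1i2; called genes with a mean of at least 50 and no overlap (10 largest each way, predicted models left out); up to 4 called genes a list; a panel of 50 genes; and 10 genes 2-fold from vehicle with both compounds. The text gives part of these, and adds Dhcr7, Ebp, Lbr, Erg28, Rdh11, Tmco6, Scyl3, Mup-ps13, Cyp2c37, Cyp2c38, Cyp2c50 and Cyp2c54 after their values were seen. Values of some genes that enter the counts of lists are not reported here.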

Additional observations from a re-analysis of the deposited data

Results flagged for a closer look

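In 12 of 198 groups of 4 libraries of the named genes (6.06%), 1 library stood far from the other 3, where chance alone gives about 1 in 20. PCN library 4 stood highest in 2 sterol synthesis genes, with 456 normalised counts for Idi1 and 121 for Fdps. Atorvastatin library 2 stood highest for Mup1 at 610.5 and for Mup12 at 683. Atorvastatin library 4 was lowest for Fasn at 5456 and highest for Clpx at 1192, and atorvastatin library 3 was highest for Per3 at 2281. PCN library 3 was highest for Plin2 at 6867 and PCN library 1 for Dtx4 at 169. In the vehicle group library 3 was highest for Plin2 at 10657 and library 4 for Mup19 at 729.6 and for Cyp2c55 at 47.8. The part of single libraries in the comparisons is given by the fits that leave each out.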

How the results depend on the processing

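Against 69 calls, of which 19 were lower with atorvastatin, limma-voom made 44, of which 10 were lower. A trend learned on the genes tested called 12 lower genes. Adjustment over all 12958 genes left 15 calls (12 higher, 3 lower, 7 sterol enzymes). Among genes of the knockout table alone, 875 of 1301 intervals lay within 1.5-fold, the count falling with the number of genes tested. TMM scaling also gave 69 calls, 60 of them shared, with 59.4% higher with atorvastatin in place of 72.5%, and a median log2 difference of −0.02 in place of 0.03. With 1 library left out, calls ran over 24 to 86, higher genes over 20 to 69, lower genes over 4 to 19, sterol enzymes over 8 to 17 and intervals within 1.5-fold over 1441 to 1584. For all but the interval count and the adjustment the cause was not tested.

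None of the 32 called named genes changed sign under the 22 alternatives, and 20 lost the call under at least 1 of them. Among named genes that were not called, 8 changed sign under some alternative. Dbp had log2 differences of −0.016 with TMM and −0.0027 with limma-voom, and Plin2 −0.048 and −0.0098. With 1 library left out the log2 difference ran over −0.085 to 0.21 for Per3, −0.049 to 0.75 for Arntl, −0.060 to 0.19 for Dbp, −0.083 to 0.15 for Plin2, −0.21 to 0.018 for Ppargc1b, −0.22 to 0.010 for Slc5a6, −0.096 to 0.13 for Dtx4 and −0.16 to 0.058 for Cldn1. No paired analysis applied, because atorvastatin and PCN were given to different animals.

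Depth limits the low genes, and genes of few reads have wide intervals. Counts in listed genes ran over 8159507 to 16331776 a library for PCN and 6636945 to 24636139 for vehicle. Those of atorvastatin are not known. The p-values rest on a spread pooled over all 12 libraries, 4 animals a group with vehicle included, and moderated by the learned prior. They do not measure the spread of the compared animals alone. With only the 8 libraries of the compounds in the fit, 55 genes were called in place of 69.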
